A study of Homo sapiens with 8 samples.

Results

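MAF and 3 genes known as its targets in myeloma, ITGB7, CCR1 and NUAK1, were followed across the 4 treatment groups of an RNA sequencing study of MM1.S cells. The members were taken by gene name, and 4 of the 16295 genes listed in the expression table matched. MM1.S is a human multiple myeloma line that carries a translocation bringing MAF under immunoglobulin heavy-chain control, and it is a single line, so nothing here speaks for other myeloma cells. The DMSO group received solvent, and the other groups received MS177, MS177N1 or C24, each at 0.5 uM for 24 h, with 2 libraries per group and 8 in all. As background, MS177 brings the histone methyltransferase EZH2 to CRBN, the substrate receptor of a ubiquitin ligase, so that EZH2 is degraded. C24 is the EZH2 inhibitor at its core, and MS177N1 is its control compound without that degrading activity. Nothing in the labels says that the 2 libraries of a group came from separate cultures, so each p reflects only how far these libraries differ, which may be technical.

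MAF encodes a basic leucine zipper transcription factor that binds DNA as a dimer at MAF response elements. In myeloma with a MAF translocation it drives genes for proliferation and for attachment to bone marrow stroma. ITGB7 encodes the integrin beta 7 chain, which pairs with the alpha E or alpha 4 chain and binds E-cadherin, MAdCAM-1 or VCAM-1. CCR1 is a receptor for inflammatory chemokines such as CCL3 and CCL5. NUAK1, also known as ARK5, is a kinase of the AMPK-related family that is activated by LKB1.

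The sequence before each gene's start is shown because the 4 genes are grouped as a factor and its targets. Whether these letters bear on the response of the genes was not tested. The 250 bases before the start are from RefSeq on build GRCh38.p14, whereas the submitters' processing notes name hg19 for the expression data. All 4 genes matched an entry. Capitals mark matches, on either strand, to 6 motifs chosen with these sequences in view. They include TGCTGA (only a part of a MAF response element), TGANTCA (an AP-1 site) and TGACGTCA (a cAMP response element). The others are TATAAA (bound by the TBP factor), CCAAT (bound by the factor NF-Y) and GGGCGG (bound by the factor SP1). No marked match overlaps another.
MAF, chr16:79600738-79600987, minus strand: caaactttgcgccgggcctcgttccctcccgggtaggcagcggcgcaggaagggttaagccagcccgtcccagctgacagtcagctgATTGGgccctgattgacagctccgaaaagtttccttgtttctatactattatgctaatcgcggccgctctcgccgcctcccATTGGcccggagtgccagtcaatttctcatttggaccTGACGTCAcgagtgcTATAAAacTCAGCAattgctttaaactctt
ITGB7, chr12:53207252-53207501, minus strand: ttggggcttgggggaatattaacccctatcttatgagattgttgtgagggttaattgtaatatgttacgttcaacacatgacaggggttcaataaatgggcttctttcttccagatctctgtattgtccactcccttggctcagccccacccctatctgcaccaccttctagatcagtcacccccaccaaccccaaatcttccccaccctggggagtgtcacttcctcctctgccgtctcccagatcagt
CCR1, chr3:46208314-46208563, minus strand: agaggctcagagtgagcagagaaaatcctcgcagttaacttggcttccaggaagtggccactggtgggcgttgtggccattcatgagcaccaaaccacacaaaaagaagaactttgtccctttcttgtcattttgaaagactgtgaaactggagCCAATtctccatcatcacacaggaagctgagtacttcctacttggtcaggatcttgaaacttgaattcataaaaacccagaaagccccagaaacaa
NUAK1, chr12:106138955-106139204, minus strand: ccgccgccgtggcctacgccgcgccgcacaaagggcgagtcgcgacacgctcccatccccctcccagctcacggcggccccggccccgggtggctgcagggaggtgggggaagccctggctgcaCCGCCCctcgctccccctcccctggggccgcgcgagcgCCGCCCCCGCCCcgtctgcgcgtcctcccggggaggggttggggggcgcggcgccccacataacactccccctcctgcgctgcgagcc

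The 4 windows differed in their letters. The MAF window held a cAMP response element 45 to 38 bases before the start and TATAAA at 30 to 25 bases. On the opposite strand it held TGCTGA, only a part of a MAF response element, at 22 to 17 bases, and CCAAT in 2 places. Of 35116 such windows in the RefSeq table, 1.65% held a cAMP response element, 10.7% held TATAAA, 14.0% held TGCTGA and 32.0% held CCAAT. The ITGB7 window held no match to the 6 motifs, and the CCR1 window held CCAAT in 1 place. The NUAK1 window held GGGCGG in 3 places on the opposite strand, a motif found in 42.6% of windows, and its GC content of 79.6% was above that of 96.3% of windows. An AP-1 site, present in 6.57% of windows, was in none of the 4. A match is a description of letters, and its absence says only that these letters are not in this window.

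The expression table held normalized log2 values, from which whole read numbers were recovered, and levels are given as normalized reads, that is, reads divided by each library's size factor. Libraries held between 20000665 and 26619099 recovered reads. Differences between groups are log2 fold changes from limma, with the standard error (SE) of each, and a gene was called at a Benjamini-Hochberg adjusted p under 0.05 over the 14164 genes tested, which included all 4 members. All 9 plasma cell markers had enough reads to be tested. Their summed level lay between 194902 and 194941 normalized reads for DMSO and between 121980 and 124143 with MS177. Of these markers, 7 fell with MS177, beside 29.0% of all genes tested, among them the surface proteoglycan SDC1 (-1.21, SE 0.04). The falls were uneven: JCHAIN, listed as IGJ (-1.22), TNFRSF17 (-1.04), MZB1 (-0.49), IRF4 and PRDM1 (-0.26 each) and SLAMF7 (-0.20). The 1 that rose, beside 28.9% of all genes, was the secretory transcription factor XBP1 (0.11, SE 0.04). Its call was lost without DMSO replicate 2, without MS177 replicate 1, and when the other groups were left out of the fit. Monocyte and granulocyte markers, which matter here because monocytes express CCR1, had 7 of 11 members listed, and their sum was 315 to 390 normalized reads for DMSO libraries and 1665 to 1790 for MS177 libraries. All 5 of these markers that were tested rose (median log2 fold change 2.36), beside 28.9% of all genes tested. They were CD68, AIF1, CD163, S100A9 and ITGAM. CD68 held most of the sum (319 ± 52.3 in DMSO and 1528 ± 80.4 with MS177, SD, n = 2). AIF1 went from 3.30 and 0 normalized reads to 51.4 and 42.1, CD163 from 0 and 0.961 to 24.6 and 24.3 (call lost without MS177 replicate 1 or 2), and S100A9 from 7.70 and 9.61 to 57.9 and 40.2. CD14 and CSF1R were too low to be tested, with at most 10.3 and 3.74 normalized reads in the DMSO and MS177 libraries. Sums of other marker lists also rose. For T and NK cells the sum was 214 to 249 normalized reads in DMSO and 405 to 436 with MS177. However, of 3 markers tested 1 rose and 2 fell, beside 28.9% of all genes tested higher and 29.0% lower. Of the 2 that fell, GNLY (limma adjusted p = 0.0467) kept its call in 5 of 17 alternatives. For stromal and epithelial cells it was 64.9 to 81.7 in DMSO and 96.3 to 108 with MS177. That sum was 97.6 to 113 with MS177N1 and 115 to 131 with C24. The part of these marker levels in the results below was not tested, and in bulk RNA fewer cells of a type and less RNA per cell cannot be told apart.

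With MS177, ITGB7 rose, CCR1 and NUAK1 fell, and no change of MAF was called. That made 3 of 4 members called against DMSO, 1 higher and 2 lower, where limma called 57.9% of all genes tested, 28.9% higher and 29.0% lower. A call was thus common in this comparison, and the count of members called is no result about the 4. Against MS177N1 all 4 were called, 2 higher and 2 lower, beside 57.4% of all genes (28.8% higher and 28.6% lower). Against C24 the 4 were likewise called, 2 in each direction, beside 58.1% of all genes (29.1% higher and 29.0% lower). The other comparisons had few calls. With limma 0 of the 4 were called with MS177N1 against DMSO, where 0.0353% of all genes were called, all of them lower. With C24 against DMSO it was 0 of 4, beside 0.0918% of all genes (0.0212% higher and 0.0706% lower), and with MS177N1 against C24 0 of 4, beside 0.0141%, all lower. At an unadjusted p under 0.05 these 3 counts were 0, 1 and 1 of 4, the 1 being MAF each time, beside 5.07%, 5.38% and 4.48% of all genes, and voom called 0 in each. The 3 comparisons with DMSO share its 2 libraries.

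**Figure D1:**
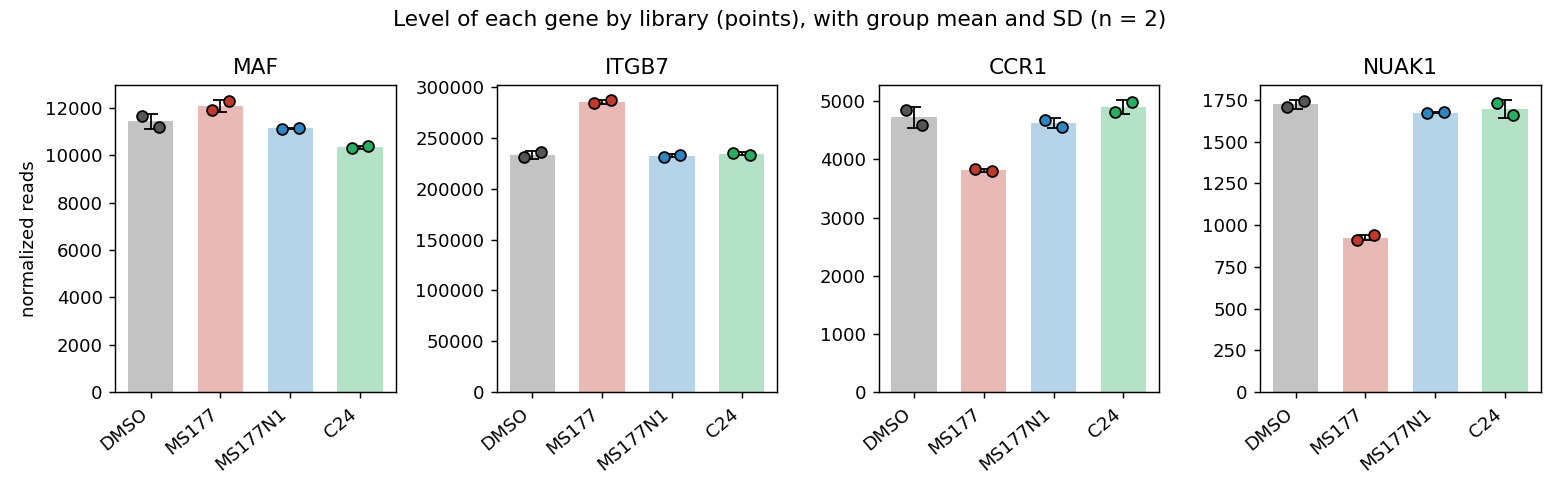
Normalized reads (vertical axis, starting at 0, a separate scale per gene) of MAF, ITGB7, CCR1 and NUAK1 in the 4 groups on the horizontal axis; points are the 2 libraries, bars the group mean and whiskers the SD. The MS177 libraries stand above all others for ITGB7 (283661 and 286847) and below all others for CCR1 and NUAK1. The MAF groups lie within a narrow range, with C24 lowest. Separation of this kind was not counted over all genes tested.

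The level of MAF, the translocated factor itself, differed by at most 1.17-fold between group means. Its normalized reads were 11658 and 11211 in DMSO, 11919 and 12277 with MS177, 11117 and 11152 with MS177N1, and 10296 and 10381 with C24. The MS177 libraries were the highest and the C24 libraries the lowest. How many of all genes tested had groups separated in this way was not counted. Against DMSO the log2 fold change with MS177 was 0.08 (SE 0.04, 95% confidence interval -0.0067 to 0.17, limma adjusted p = 0.106), a smaller change than that of 89.0% of all genes tested. Total-read scaling, which put the median of all genes at 0.09 in that comparison, took MAF past the threshold at 0.17 (adjusted p = 0.00284), and removal of each library's length and GC trend brought it to 0.01 (adjusted p = 0.779). Over all alternatives the adjusted p lay between 0.00284 and 0.779.

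**Figure D2:**
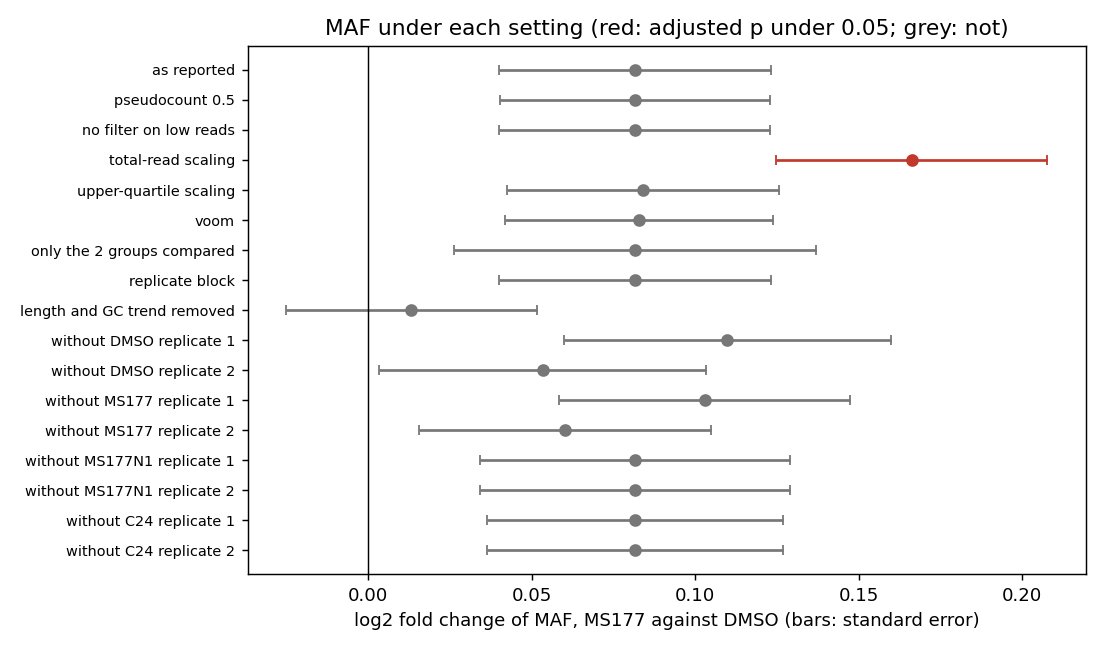
Log2 fold change of MAF in MS177 against DMSO (horizontal axis) under each analysis setting except limma on the deposited log2 values (vertical axis). Points are estimates and bars their standard errors, red where the adjusted p was under 0.05. Each estimate lies above 0, from 0.01 with the length and GC trend removed to 0.17 with total-read scaling, and only the latter passed the threshold.

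With C24, MAF was at 10338 ± 60.1 normalized reads against 11434 ± 316 in DMSO (SD, n = 2). The log2 fold change was -0.15 (SE 0.04, interval -0.23 to -0.06). With limma its unadjusted p was 0.00314 and its adjusted p 0.604, so it failed the correction over all genes. With MS177N1 the change was -0.04 (SE 0.04, interval -0.13 to 0.05, adjusted p = 0.986). MAF was higher with MS177 than with C24 by 0.23 (SE 0.04, adjusted p = 0.000214) and higher than with MS177N1 by 0.12 (SE 0.04, adjusted p = 0.0219). The difference from MS177N1 lost its call without MS177 replicate 2 (adjusted p = 0.0701), without MS177N1 replicate 1 (0.116) or replicate 2 (0.103), and with the length and GC trend removed (0.119). In order of mean level the groups ran from MS177 through DMSO and MS177N1 to C24, and no pair of neighbours in that order was called (adjusted p = 0.106, 0.986 and 0.997).

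ITGB7 was among the most abundant transcripts of these cells. It took 1.01% and 1.04% of all listed reads in the DMSO libraries, second only to the translation factor EEF1A1, and 1.32% and 1.34% with MS177, where it ranked first in both libraries. Per kilobase of its longest GENCODE v29 transcript (2867 bases) it stood at 81423 normalized reads in DMSO, rank 3 of the 14421 genes with a length, compared with 1791 for MAF, 1728 for CCR1 and 252 for NUAK1 on the same scale. In the GENCODE v29 annotation 51.4% of its exon bases are also exon of ZNF740 on the opposite strand. ZNF740 itself had at most 3506 reads in a library, where ITGB7 had at least 209582.

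The level of ITGB7 was 230670 and 236210 normalized reads in DMSO, 283661 and 286847 with MS177, 231177 and 233452 with MS177N1, and 235416 and 233466 with C24. Both MS177 libraries were above the other 6, whose whole range was narrow. Such separation was not counted over all genes tested, so it is no result about ITGB7 in particular. ITGB7 rose 1.22-fold with MS177 (log2 fold change 0.29, SE 0.03, limma adjusted p = 1.62e-07), and by 0.30 (SE 0.03) against MS177N1 and 0.28 (SE 0.03) against C24 (adjusted p = 1.29e-07 and 2.07e-07). The change against DMSO is small next to that of other genes, since 62.5% of all genes tested moved further. With MS177N1 and C24 the differences from DMSO were -0.0069 (interval -0.06 to 0.05) and 0.0063 (interval -0.05 to 0.06), so a change of the size seen with MS177 lies outside both intervals. DMSO, MS177N1 and C24 were next to each other in level and no pair of them was called.

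The alpha chains that pair with ITGB7 went the other way. ITGAE, the alpha E chain, stood at 680 and 726 normalized reads in the DMSO libraries and 446 and 388 in the MS177 libraries, a fall of 0.75 on the log2 scale (SE 0.09, adjusted p = 2.86e-06). ITGA4, the alpha 4 chain, fell from 3741 ± 183 to 3031 ± 185 (SD, n = 2; log2 fold change -0.30, SE 0.06, adjusted p = 0.000223). ITGB1, the other beta chain that pairs with ITGA4, rose by 0.57 (SE 0.06). Of 32 genes listed as partners, ligands or other integrins, 23 were in the table and 21 were tested. Of the 21, 9 rose and 6 fell, beside 28.9% of all genes tested higher and 29.0% lower. The median of the list was 0.26 against 0.0045 over all genes tested. ITGA8 fell from 5530 ± 401 to 994 ± 92.3, and ITGA1, a collagen-binding chain, rose from 2.54 ± 0.483 to 200 ± 12.6. ITGA6, a laminin-binding chain, fell by 2.32 on the log2 scale (SE 0.09), and ITGB5, which pairs with the alpha V chain, rose 2.22-fold. ICAM1, a ligand of leukocyte integrins that is induced by NF-kB, rose 5.57-fold. CDH1, the E-cadherin ligand of the alpha E beta 7 pair, had 0 reads in both DMSO libraries and 6.43 and 5.61 normalized reads with MS177, too few to be tested.

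CCR1 was lower with MS177. Its normalized reads were 4842 and 4595 in DMSO, 3832 and 3796 with MS177, 4677 and 4559 with MS177N1, and 4819 and 4990 with C24. Both MS177 libraries were below the other 6, and the MS177N1 and C24 groups each overlapped with DMSO. Neither the separation nor the overlap was counted over all genes tested. The fall was 1.24-fold (log2 fold change -0.31, SE 0.05, limma adjusted p = 5.72e-05), and it was -0.28 (SE 0.05) against MS177N1 and -0.36 (SE 0.05) against C24 (adjusted p = 0.000159 and 1.02e-05). The difference from DMSO was -0.03 with MS177N1 (interval -0.13 to 0.07) and 0.06 with C24 (interval -0.05 to 0.16). In the GENCODE v29 annotation CCR1 overlaps CCR3 on the opposite strand but shares 0 exon bases with it, and CCR3 had at most 89 reads in a library.

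CCL3 and CCL5, which encode ligands of CCR1, rose while the receptor gene fell. CCL3 went from 8799 and 8026 normalized reads without compound to 14136 and 11638 with MS177 (log2 fold change 0.61, SE 0.08, adjusted p = 6.32e-05). CCL5 rose by 3.09 on the log2 scale (SE 0.09), from 314 ± 5.34 to 2680 ± 80.9, and CCL4, a close relative of CCL3, rose 9.32-fold. Among 25 genes listed as CCR1 ligands and other chemokine receptors, 14 were in the table and 12 were tested, with a median of 0.43. Of the 12, 6 rose and 4 fell, beside 28.9% of all genes tested higher and 29.0% lower. Among those that fell were the receptors CXCR3 (-0.70, SE 0.10), CCR2 (-0.58, SE 0.12) and CCR10 (-0.54, SE 0.06). CXCR4, the marrow-homing receptor, rose by 0.25 (SE 0.07), and CX3CR1 by 1.27 (SE 0.14).

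NUAK1 had the largest change of the 4. Its normalized reads were 1705 and 1743 in DMSO, 913 and 938 with MS177, 1670 and 1674 with MS177N1, and 1732 and 1656 with C24. The MS177 libraries were well below the other 6, the C24 group overlapped with DMSO, and the MS177N1 libraries were just below DMSO. Here too, separation and overlap were not counted over all genes tested. NUAK1 fell 1.86-fold (log2 fold change -0.90, SE 0.06, limma adjusted p = 6.24e-09), and 19.9% of all genes tested changed by more. Against MS177N1 and C24 it was -0.85 and -0.87 (SE 0.06 each, adjusted p = 1.11e-08 and 8.75e-09). Its differences from DMSO were -0.04 with MS177N1 (interval -0.18 to 0.09) and -0.03 with C24 (interval -0.16 to 0.11).

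**Figure D3:**
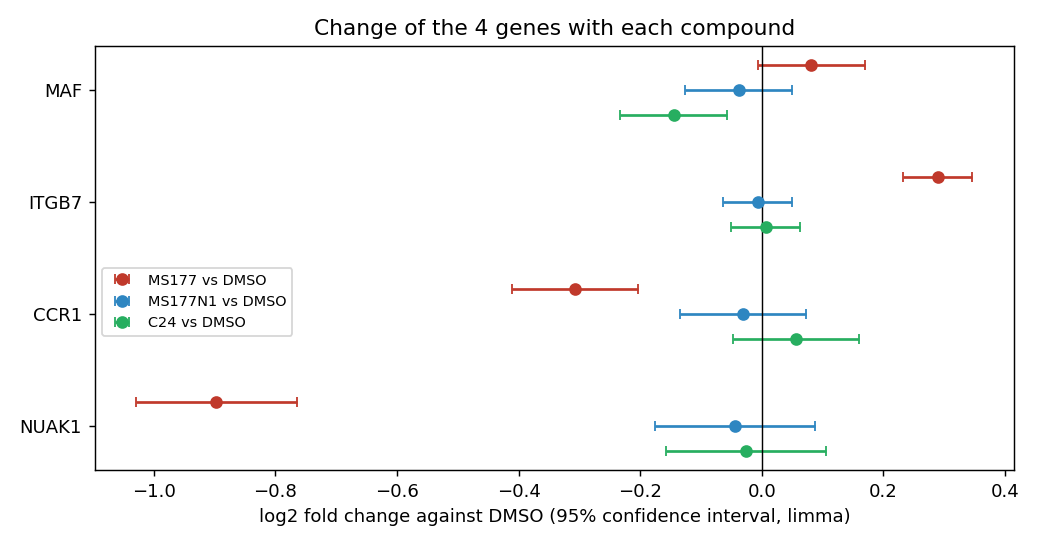
Log2 fold change against DMSO (horizontal axis) of the 4 genes (vertical axis) with MS177 (red), MS177N1 (blue) and C24 (green); points are limma estimates and bars 95% confidence intervals. The MS177 intervals lie away from 0 for ITGB7, CCR1 and NUAK1, and those of MS177N1 and C24 cross 0 except for MAF with C24.

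Its paralog moved in the opposite direction. NUAK2, the other NUAK kinase, was at 237 and 238 normalized reads in the DMSO libraries and 716 and 661 in the MS177 libraries, a rise of 2.89-fold (log2 fold change 1.53, SE 0.12, adjusted p = 1.91e-08). STK11, which encodes the activating kinase LKB1, was at 2807 ± 124 and 3165 ± 346 (SD, n = 2; 0.17, SE 0.07, adjusted p = 0.0493), a call kept in 6 of 17 alternatives and lost, among others, without DMSO replicate 1 or 2, MS177 replicate 1, MS177N1 replicate 1 or 2, or C24 replicate 1 or 2. CAB39, the scaffold of the LKB1 complex, rose by 0.47 (SE 0.05), and of its pseudokinases STRADA rose by 0.31 (SE 0.09; call lost without DMSO replicate 2) and STRADB fell by 0.60 (SE 0.10). Of 20 listed genes around NUAK1, 19 were in the table and were tested. Of the 19, 10 rose and 2 fell, beside 28.9% of all genes tested higher and 29.0% lower. The median of the list was 0.26. Among the related kinases SNRK rose by 0.67 (SE 0.08) and SIK3 by 0.62 (SE 0.06), whereas MARK1 fell by 0.56 (SE 0.17; call lost without MS177 replicate 2). MARK3 (0.18, SE 0.07, adjusted p = 0.0499) kept its call in 6 of 17 alternatives and lost it when any 1 of the 8 libraries was left out. PPP1R12A, the myosin phosphatase subunit that NUAK1 phosphorylates, rose by 0.36 (SE 0.06).

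Other genes tied to MAF in myeloma did not share 1 direction. Of 8 listed, 6 were tested, with a median of 0.12. With MS177 3 rose and 1 fell, beside 28.9% of all genes tested higher and 29.0% lower. CCND2, the D-type cyclin that MAF activates, went from 15169 and 15556 normalized reads in the DMSO libraries to 12825 and 13705 in the MS177 libraries, a fall of 0.21 (SE 0.04, adjusted p = 0.000565). DEPTOR, an mTOR-binding inhibitor abundant in MAF-translocated myeloma, rose from 6003 ± 53.0 to 7421 ± 375 (0.30, SE 0.05). CX3CR1, the fractalkine receptor, rose 2.41-fold and TLR4, the lipopolysaccharide receptor, rose from 245 and 287 normalized reads to 498 and 567. ARID5A and NTRK2 were not called (-0.06 and -0.37, adjusted p = 0.304 and 0.0661). NTRK2 was called as lower with the replicate block, with the length and GC trend removed and without MS177 replicate 2, and ARID5A as lower without MS177 replicate 1; total-read scaling turned ARID5A to 0.02.

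Of the other genes that primary immunoglobulin translocations activate in myeloma, and the D cyclins, 6 of 7 were tested (median -0.24). Of the 6, 1 rose and 4 fell, beside 28.9% of all genes tested higher and 29.0% lower. CCND1 fell 5.66-fold, from 200 ± 18.4 to 34.7 ± 5.14, CCND3 fell by 0.55 (SE 0.08), and the histone methyltransferase gene NSD2, listed as WHSC1, fell by 0.26 (SE 0.05).

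Of 19 genes listed for the wider MAF family and its leucine zipper partners 16 were tested; 9 rose and 4 fell with MS177, beside 28.9% of all genes higher and 29.0% lower. The median was 0.77, against 0.0045 over all genes tested. JUN, an AP-1 subunit, rose 8.10-fold from 2043 ± 134 to 16544 ± 1067, and JUND rose 2.95-fold. BACH2, a repressor that pairs with small MAF proteins, rose 2.72-fold, BACH1 2.29-fold and the partner NFE2L1 2.28-fold. The small MAF genes split: MAFF rose 2.27-fold (302 ± 52.8 to 679 ± 4.54 normalized reads), MAFK fell 1.61-fold and MAFG was not called (-0.05, SE 0.06). MAFG turned to 0.03 with total-read scaling, also changed sign without DMSO replicate 1, and was called as lower with the length and GC trend removed. FOS and FOSB fell by 0.45 (SE 0.15) and 0.95 (SE 0.38). The call of FOS was lost when DMSO replicate 2 or MS177 replicate 1 was left out and with total-read scaling, and that of FOSB when any 1 of the DMSO or MS177 libraries was left out, on the deposited values, with total-read scaling and with voom.

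Genes for enzymes that mark or unmark MAF protein, with the gene WWOX in whose neighbourhood the translocation falls, were all tested (median -0.13). Of the 9, 3 rose and 3 fell, beside 28.9% of all genes tested higher and 29.0% lower. USP5 and USP7, deubiquitinases that stabilise MAF, fell by 0.54 (SE 0.05) and 0.24 (SE 0.04). KAT2B, an acetyltransferase, rose by 0.60 (SE 0.07) and HERC4, a ubiquitin ligase of MAF, by 0.31 (SE 0.10; call lost without DMSO replicate 2). GSK3B, a kinase that phosphorylates MAF, rose by 0.16 (SE 0.06) and GSK3A fell by 0.22 (SE 0.08). Leaving out DMSO replicate 2 or MS177 replicate 2 ended the call of GSK3B, and leaving out DMSO replicate 1 or MS177 replicate 2 that of GSK3A. Both lost it with only the 2 groups compared, GSK3B also with the length and GC trend removed and GSK3A also with total-read scaling. Over the alternatives GSK3B lay between 0.05 and 0.25 and GSK3A between -0.37 and -0.07. WWOX was at 60.7 ± 2.89 in DMSO and 50.9 ± 9.84 with MS177 (adjusted p = 0.411).

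**Figure D4:**
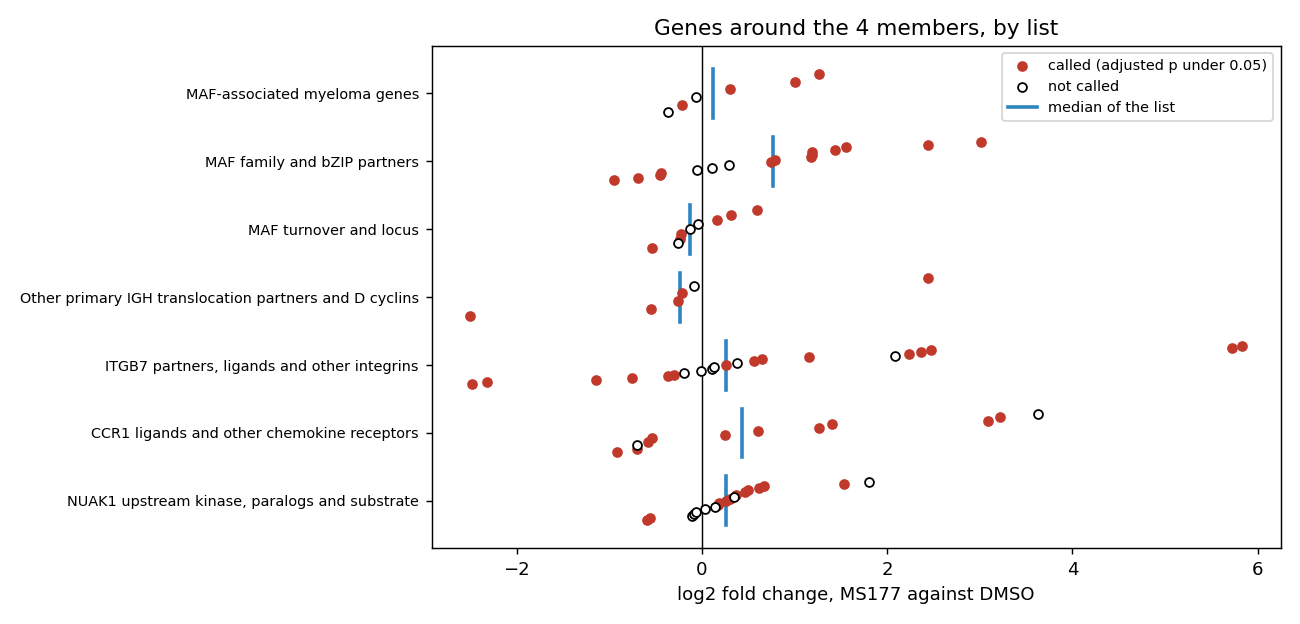
Log2 fold change in MS177 against DMSO (horizontal axis) of each tested gene of the 7 lists around the members (vertical axis); filled points were called, open points were not, and blue bars are list medians. List medians lie between -0.24 and 0.77, and each list holds genes on both sides of 0.

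Over the 7 lists, 94 distinct genes were in the table and 86 were tested. With MS177 against DMSO 62 of the 86 (72.1%) were called, beside the 57.9% of all genes tested. Among the 86, 39 rose and 23 fell, beside 28.9% of all genes higher and 29.0% lower. Against MS177N1 and C24, 60 (69.8%) and 62 (72.1%) of the 86 were called, beside 57.4% and 58.1% of all genes. With MS177N1 and C24 against DMSO limma called 0 of the 86, beside 0.0353% and 0.0918% of all genes tested. Voom also called 0 of the 86, beside 8 and 13 of the 14164 genes tested. With so few calls in all, these counts are no result about the lists. At an unadjusted limma p under 0.05 there were 9 and 14 of the 86 (10.5% and 16.3%), beside 5.07% and 5.38% of all genes tested.

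Genes whose pattern over the 8 libraries was most like each member's were taken by Pearson correlation of log2 normalized reads among 10242 other genes with a mean of at least 100 normalized reads. The points share their libraries and scaling, so the values are descriptions. For MAF the closest were PIGQ (0.978), RBM22 (0.951), ARHGAP15 (0.951), INPP5E (0.950) and RP11-274B21.2 (0.943), and 37 genes exceeded 0.9. For ITGB7 they were STX12, VPS26A, EML4, STAT3 and MTMR14 (0.998 to 0.999), and 2273 genes exceeded 0.9. For CCR1 they were EDEM2, HNRNPC, HES1, GNA12 and LAT2 (0.992 to 0.995), with 2242 over 0.9, and for NUAK1 they included SIDT2, EIF4A1, STIP1 and ITGA6 (0.999 each), with 2701 over 0.9. At a correlation over 0.9, few genes thus followed the pattern of MAF, while the patterns of the other 3 were common in these libraries. The group means of MAF differed by at most 1.17-fold, and the part of this narrow range in its low count was not tested.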

How the data were processed

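RNA of MM1.S cells was measured in 8 libraries, 2 per group. The authors deposited normalized log2 values, so named in the header, for 16295 genes. The submitters' processing notes name STAR 2.4.2, Salmon 0.1.19, DESeq2 1.38.2 and hg19, with no role or order. All values share a minimum of 5.967655733, that of a variance-stabilizing scale at 0 reads. Inverting it gave whole reads within 0.01 for 130360 of 130360 values. A gene was tested if 2 or more libraries reached 10 reads, scaled to the median library, and its total reached 15. The log2 of normalized reads plus 1 went into limma 3.58.1 in R 4.3.3, with an intensity trend and robust variance, all groups in 1 fit, with Benjamini-Hochberg adjustment over genes; simulated data were used to check the fit. Named genes are the members, listed genes and closest patterns. Members and lists were chosen with earlier results of these data known; the length and GC alternative was added after seeing the data. That alternative used GENCODE v29 transcripts, matched for 88.5% of genes. Counting by strand is not given in the sources used here. Some genes are not reported here.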

Additional observations from a re-analysis of the deposited data

How the results depend on the processing

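Each of the 4 genes was recomputed under 17 alternatives. In MS177 against DMSO, MS177N1 and C24, ITGB7, CCR1 and NUAK1 kept their direction and their call under all 17. MAF against DMSO was called with total-read scaling (0.17), and MAF against MS177N1 was not called with the length and GC trend removed (0.069) or without MS177 replicate 2, MS177N1 replicate 1 or MS177N1 replicate 2; with each of the 8 libraries left out in turn, called or not, it lay between 0.098 and 0.14. Where no call was made, near-zero differences changed sign: ITGB7 with MS177N1 against DMSO became 0.0031 with total-read scaling and ranged from -0.024 to 0.010 with 1 library left out, CCR1 in that comparison from -0.068 to 0.0070, ITGB7 with C24 against DMSO from -0.011 to 0.023, NUAK1 with C24 against DMSO from -0.058 to 0.0070, and NUAK1 with MS177N1 against C24 from -0.051 to 0.014. Counts of called genes over the whole table moved where few were called. With MS177N1 against DMSO, 5 became 8 on the deposited log2 values, 8 with upper-quartile scaling, 8 with voom, 3 with total-read scaling, 17 with only the 2 groups compared, 2 with the length and GC trend removed, and 0 to 19 with 1 library left out. With C24 against DMSO, 13 became 10 to 28 with 1 library left out. With MS177N1 against C24, 2 became 28 with only the 2 groups compared, 4 with the length and GC trend removed, and 0 to 13 with 1 library left out. The cause was not tested. Total-read scaling moved the balance of calls in MS177 against DMSO from 49.9% to 58.0% higher. Replicates share numbers only: same-numbered libraries had deviations correlated between -0.06 and 0.06 over 6 pairs of groups, and a replicate block gave 11 genes with MS177N1 and 20 with C24 against DMSO and changed no call of the 4 members. With 2 libraries per group the median SE over all genes was 0.11 in MS177 against DMSO, which limits what could be called.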
